A study of Mus musculus with 6 samples.

Results

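Wnt signalling genes were examined in mouse bone marrow cells that had received a retrovirus expressing MN1, a leukaemia-associated transcriptional coregulator, or an empty vector. The set holds every gene whose single annotated symbol is Wnt or Fzd followed by a digit, plus 17 listed co-receptors, secreted modulators, intracellular components and TCF factors. Of these, 46 genes were measured among 19938 genes tested: 19 Wnt ligands, 10 Frizzled receptors, 16 of the 17 listed components, and Fzd10os, an opposite-strand transcript that meets the naming rule but is no receptor. Tcf7 was not analysed here. The rule reads symbols and uses no measured value, apart from keeping, for Wnt4, the probe set with the higher mean of its 2, but the set was proposed with earlier results of these data known.

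The MN1 group held 3 arrays of marrow cells transduced with MSCV-MN1-IRES/YFP. The empty vector group held 3 arrays of marrow cells transduced with MSCV-IRES-GFP. As named, the vectors differ in the reporter as well as in MN1, and these cannot be told apart. The cells were collected as reporter-positive cells 72 hours after transduction. The labels call the reporter GFP for these cells, whereas the series text calls it YFP. Neither the strain, age and sex of the mice nor the species of the MN1 cDNA is given in the labels. The retroviral vector is not restricted to a cell type, so each array reads a mixture of transduced marrow cells. In such bulk samples, fewer cells of a type and less RNA per cell cannot be told apart. The 3 replicates are described as independent transduction experiments, and the number of arrays limits the precision of every value.

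Values are log2 expression from RMA, a method that corrects background, normalizes arrays and summarises the probes of each set. A log2 difference of 1 is a doubling, written as MN1 minus empty vector, with the moderated standard error (SE) of limma. The 6 array medians lay between 5.82 and 6.01. Mn1 itself measured 6.47, 6.62 and 6.08 on the MN1 arrays, against 5.34, 5.41 and 4.80 on the empty vector arrays. The groups did not overlap for Mn1, in the direction of the labels, yet its adjusted p was 0.584 (limma, Benjamini-Hochberg over all genes). Its difference was 2.30-fold, and its mean of 5.78 was among the dimmest 40% of genes. As the species of the cDNA is not given, how far this probe set reads it is not known. Granulocyte markers were at high values: the mean of 15 ran from 9.26 to 10.02 on MN1 arrays and from 8.96 to 11.96 on empty vector arrays. Of these 15, 14 had differences below 0 and 1 above, where 56.7% and 43.3% of all genes did. Of 12 stem and progenitor markers, 2 had differences below 0 and 10 above. The mean of 13 monocyte and macrophage markers was also high, at 10.41 to 11.07 on MN1 arrays and 9.88 to 10.27 on empty vector arrays. Not all marrow lineages were so high, and the mean of 11 B lineage markers ran from 5.66 to 7.21 over the 6 arrays. The mean of 13 T and natural killer cell markers was 5.41 to 5.70 on MN1 arrays and 5.72 to 5.93 on empty vector arrays.

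Wnt proteins are secreted, lipid-modified ligands that bind Frizzled receptors and the co-receptors Lrp5 and Lrp6. Without a ligand, a destruction complex of Axin, Apc and Gsk3 marks beta-catenin for degradation; with a ligand, Dishevelled proteins block that complex, and beta-catenin enters the nucleus and binds TCF factors to switch on genes such as Axin2. Other branches act through Frizzled on cell polarity and calcium, and in bone marrow the level of Wnt signalling is known to influence stem cell self-renewal and lymphoid development.

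No Wnt pathway gene passed the test, as no gene in the table did: 0 of 46 members and 0% of the 19938 genes had an adjusted p under 0.05. The smallest adjusted p of a member was 0.584. The adjusted p of each gene described below lay between 0.584 and 0.992 (limma, Benjamini-Hochberg over all genes) and the differences below are given as measurements with their errors. At an unadjusted p under 0.05, 1 member was higher with MN1, where 4.17% of all genes were, and 7 of 46 (15.2%) were lower, where 4.23% of all genes were. The 1 higher gene was Tcf7l2. The 7 lower genes were Wnt1, Wnt3, Wnt5b, Wnt7b, Wnt8b, Wnt10b and Axin2. Leaving out 1 array at a time changed which genes were counted. With MN1 replicate 1, 2 or 3 removed, the lower count was 2, 7 and 3, where 2.38%, 4.48% and 2.45% of all genes were lower. Without empty vector replicate 1, 2 or 3 the lower count was 3, 4 and 4, where 3.54%, 2.00% and 5.20% were. Wnt1 and Wnt3 were in every one of these lower counts. The higher count was 2 without MN1 replicate 1, 3 without MN1 replicate 2, 4 without MN1 replicate 3, and 0 without empty vector replicate 1, 2 or 3. Of all genes, 1675 had such a p in either direction with every array kept. Without MN1 replicate 1, 2 or 3 there were 1319, 1937 and 1331, and without empty vector replicate 1, 2 or 3 there were 1430, 906 and 1953. Tcf7l2 was not among the 4 genes left without MN1 replicate 3, which were Apc, Ctnnb1, Fzd1 and Fzd7. All 46 differences lay between -0.45 and 0.95, and 0 members reached a 2-fold difference, where 0.993% of all genes were higher by that much and 0.381% lower.

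**Figure D1:**
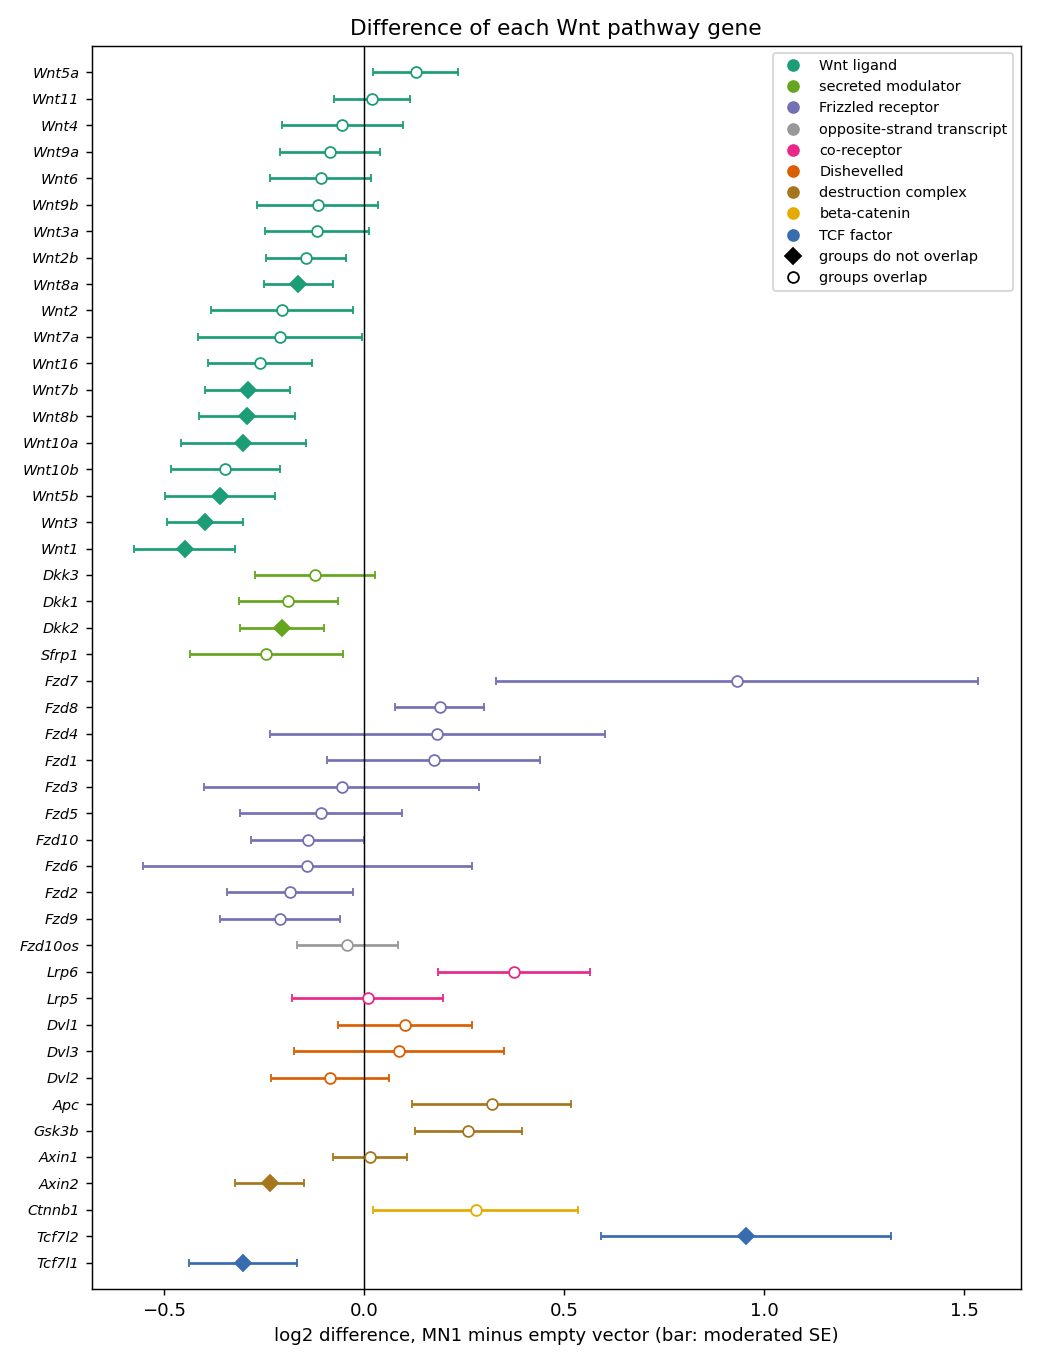
Log2 difference (x axis, MN1 minus empty vector) of each of the 46 genes (y axis), grouped by role, with the moderated SE as bars; filled diamonds are genes whose MN1 and empty vector arrays do not overlap. The Wnt ligands lie mostly left of 0, with 17 of 19 below it, while Fzd7 and Tcf7l2 stand furthest to the right at 0.93 and 0.95.

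The Wnt ligands had slightly lower values on MN1 arrays: 17 of 19 differences were below 0, and the count was the same after median-centring or quantile normalization of the arrays, but 12 with the Y-linked gene level as a covariate. Of all genes, 49.9%, 59.6% and 53.0% lay below 0 in those settings, in that order. The median difference of the ligands was -0.21, against -0.03 over all genes tested. Over all genes, 43.3% of differences were above 0 and 56.7% below. For 7 of 19 ligands (36.8%) all MN1 arrays lay below all empty vector arrays, where 10.3% of all genes did so; for 0 of 19 they lay above, where 5.71% of all genes did.

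Wnt1, the founding mouse mammary proto-oncogene of the family, measured 5.28, 5.59 and 5.42 on the MN1 arrays, against 5.78, 6.04 and 5.82 on the empty vector arrays. The groups did not overlap, and the difference was -0.45 ± 0.13 (SE), or 0.732-fold (unadjusted p = 0.0108). Wnt3, a ligand needed for the embryonic axis, measured 5.25, 5.41 and 5.44 with MN1, against 5.78, 5.78 and 5.73 with the empty vector. Here the empty vector arrays were tightly grouped (SD 0.03, n = 3) above every MN1 array, and the difference was -0.40 ± 0.10 (SE, unadjusted p = 0.00505), the smallest p among the 46 genes. These 2 genes and Wnt3's neighbour Wnt9b belong to conserved gene pairs: in annotation order with protein-coding genes only, Wnt1 lies beside Wnt10b, Wnt3 beside Wnt9b, Wnt10a beside Wnt6, and Wnt3a beside Wnt9a. All 8 of these paired genes had differences below 0, from -0.45 in Wnt1 to -0.09 in Wnt9a. Their groups did not overlap for Wnt1, Wnt3 and Wnt10a. Of all 19 ligands, 17 lay below 0 and 7 (36.8%) had non-overlapping lower groups, where 56.7% and 10.3% of all genes did. A relation of these values to the gene pairs was not tested.

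Wnt10b, a ligand that favours bone formation over fat, measured 6.14, 6.33 and 6.20 with MN1, against 6.66, 6.33 and 6.73 with the empty vector. Empty vector replicate 2 lay among the MN1 arrays, so the groups overlapped, and the difference was -0.35 ± 0.14 (SE). Its relative Wnt10a, known for roles in teeth and hair, measured 6.77, 6.73 and 6.69 with MN1, against 6.84, 7.36 and 6.89 with the empty vector. The difference of Wnt10a, -0.30 ± 0.16 (SE), was -0.14 without empty vector replicate 2. Wnt5b measured 6.09, 6.23 and 5.98 with MN1, against 6.37, 6.70 and 6.31 with the empty vector, again with the highest value on empty vector replicate 2 a difference of -0.36 ± 0.14 (SE) and no overlap. Wnt7b, a ligand of lung and bone development, measured 5.81, 6.07 and 5.97 with MN1, against 6.21, 6.32 and 6.19 with the empty vector. The groups did not overlap for Wnt7b, at a difference of -0.29 ± 0.11 (SE).

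Wnt8b, a ligand of the developing brain, measured 4.02, 4.35 and 4.13 with MN1, against 4.36, 4.57 and 4.46 with the empty vector, a difference of -0.29 ± 0.12 (SE). The gap between the groups was narrow, since MN1 replicate 2 was close to empty vector replicate 1. Wnt8a measured 5.23, 5.31 and 5.29 with MN1, against 5.43, 5.50 and 5.40 with the empty vector, without overlap and with a difference of -0.16 ± 0.09 (SE). The other 11 ligands had overlapping groups and differences from -0.26 to 0.13. Among them, Wnt16, which is required for blood stem cell specification in zebrafish, differed by -0.26 ± 0.13 (SE). Wnt2 and Wnt7a each differed by -0.21, Wnt2b by -0.15, Wnt3a and Wnt9b by -0.12, Wnt6 by -0.11, Wnt9a by -0.09 and Wnt4 by -0.05. Single arrays decided some of these: Wnt2 differed by -0.02 without empty vector replicate 1, and Wnt7a by -0.02 without empty vector replicate 2. The only ligands above 0 were Wnt5a (0.13 ± 0.11, SE) and Wnt11 (0.02 ± 0.10, SE), which act mainly outside the beta-catenin branch.

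Genes with low array values differed in the same direction as the ligands across the whole table. The 19938 genes were split into 5 bins of equal size by their mean value over the 6 arrays, a split made after the data were seen. A probe set's value also depends on its probes, so the bins do not rank transcripts by abundance. The ligands fell in bins 1 to 3, with 2, 7 and 10 genes. In bin 2, with means of 4.60 to 5.82, 79.4% of all genes had a difference below 0 and 19.7% had non-overlapping lower MN1 arrays. In bin 1 these shares were 75.8% and 14.3%, in bin 3 they were 56.0% and 13.4%, in bin 4 only 32.5% and 2.41%, and in bin 5 39.9% and 1.68%. Lower values at an unadjusted p under 0.05 made up 2.53%, 7.72%, 7.67%, 2.03% and 1.18% of bins 1 to 5, against 6 of the 19 ligands (31.6%). Higher MN1 arrays without overlap made up 1.45%, 2.08%, 7.25%, 10.4% and 7.35% of bins 1 to 5. The median difference was -0.07 in bin 1, -0.12 in bin 2, -0.05 in bin 3, 0.11 in bin 4 and 0.05 in bin 5. The median deviation of the ligands from their own means was -0.16, -0.02 and -0.17 on the MN1 arrays, against 0.00, 0.21 and 0.03 on the empty vector arrays, while for all genes of bin 2 it was -0.07, -0.01 and -0.10, against 0.03, 0.12 and 0.01. In the ligands and in all genes of bins 1, 2 and 3, MN1 replicates 1 and 3 had the lowest medians and empty vector replicate 2 the highest; the other arrays were ordered differently in bins 2 and 3. Empty vector replicate 2 held the highest value of 13 of the 19 ligands, and MN1 replicates 1 and 3 held the lowest value of 10 and 8. The part of this table-wide shift in the ligand values was not tested.

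**Figure D2:**
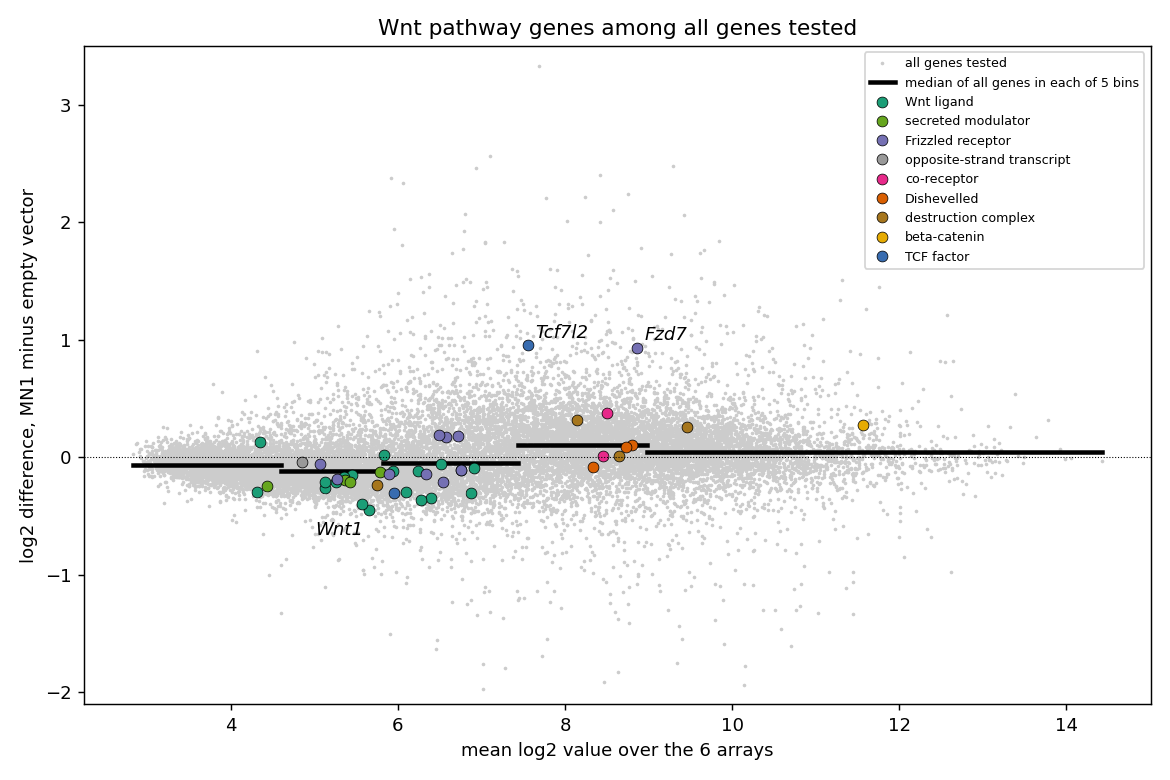
Log2 difference (y axis, MN1 minus empty vector) against the mean log2 value over the 6 arrays (x axis) for all 19938 genes in grey and the 46 Wnt pathway genes in colour by role; black bars are the median of all genes in each of 5 equal bins. The bars run from -0.12 in bin 2 to 0.11 in bin 4, and the Wnt ligands lie mostly below the bars of bins 1 to 3.

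The 4 measured secreted modulators also lay in bins 1 and 2 and also differed by less than 0. Dkk1, an inhibitor that binds Lrp5 and Lrp6, measured 5.27, 5.34 and 5.22 with MN1, against 5.29, 5.68 and 5.44 with the empty vector (difference -0.19 ± 0.12, SE). Its relative Dkk2 measured 5.16, 5.41 and 5.40 with MN1, against 5.54, 5.55 and 5.50 with the empty vector (-0.21 ± 0.10, SE). Dkk2 was the only modulator without overlap between the groups, and its MN1 replicates 2 and 3 were close to the empty vector arrays. Dkk3, a divergent member of the Dickkopf family, measured 5.89, 5.71 and 5.58 with MN1, against 5.66, 6.11 and 5.78 with the empty vector (-0.12 ± 0.15, SE). Sfrp1, a decoy that binds Wnt ligands directly, measured 4.38, 4.41 and 4.15 with MN1, against 4.94, 4.49 and 4.24 with the empty vector (-0.24 ± 0.19, SE). The difference of Sfrp1 came largely from empty vector replicate 1, and without that array it was -0.05.

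The Frizzled receptors split around 0, with 4 of 10 above and 6 below, a median of -0.08, and overlapping groups for all 10. Fzd7, a receptor of stem and progenitor cells in several tissues, measured 10.58, 9.14 and 8.26 on the MN1 arrays, against 9.02, 8.31 and 7.85 on the empty vector arrays. Its range over the 6 arrays, 2.73, was the widest of the 46 genes, and MN1 replicate 1 stood above all others. The difference was 0.93 ± 0.60 (SE), with a 95% interval from -0.52 to 2.38 and an adjusted p of 0.639. Removing MN1 replicate 1 gave 0.31, and removing MN1 replicate 3 gave 1.47. The mean of 8 megakaryocyte and platelet markers was 11.09, 10.22 and 9.12 on the same MN1 arrays, against 9.82, 8.34 and 9.26 on the empty vector arrays. MN1 replicates 1 and 2 and empty vector replicate 1 were highest in both these markers and Fzd7. The other arrays were ordered differently, with empty vector replicate 3 lowest in Fzd7 and empty vector replicate 2 lowest in the markers. The part of those cells in the Fzd7 values was not tested.

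Fzd4, Fzd6 and Fzd3 were singled out after their values were seen, because their spread within groups was wide. Fzd4, which also receives the ligand Norrin, measured 6.44, 6.40 and 7.58 with MN1, against 6.09, 6.50 and 7.28 with the empty vector. Fzd6, a receptor of the polarity branch, measured 6.03, 6.004 and 6.75 with MN1, against 5.84, 6.09 and 7.29 with the empty vector. For both genes the highest values were on replicate 3 of each group, and the group differences were small beside that (0.18 ± 0.42 and -0.14 ± 0.41, SE). The mean of 11 B lineage markers was likewise high on both replicate 3 arrays, at 7.18 with MN1 and 7.21 with the empty vector, but it was also 6.97 on MN1 replicate 1, where Fzd4 and Fzd6 were low; the other arrays had 6.10 with MN1, against 6.23 and 5.66 with the empty vector. Fzd3, which guides growing axons, measured 4.89, 4.90 and 5.32 with MN1, against 4.38, 5.76 and 5.14 with the empty vector, so the empty vector arrays enclosed the MN1 arrays. The remaining receptors differed by 0.19 (Fzd8), 0.17 (Fzd1), -0.11 (Fzd5), -0.14 (Fzd10), -0.19 (Fzd2) and -0.21 (Fzd9), with SEs of 0.11 to 0.27. Fzd10os, transcribed opposite Fzd10, differed by -0.04 ± 0.13 (SE).

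**Figure D3:**
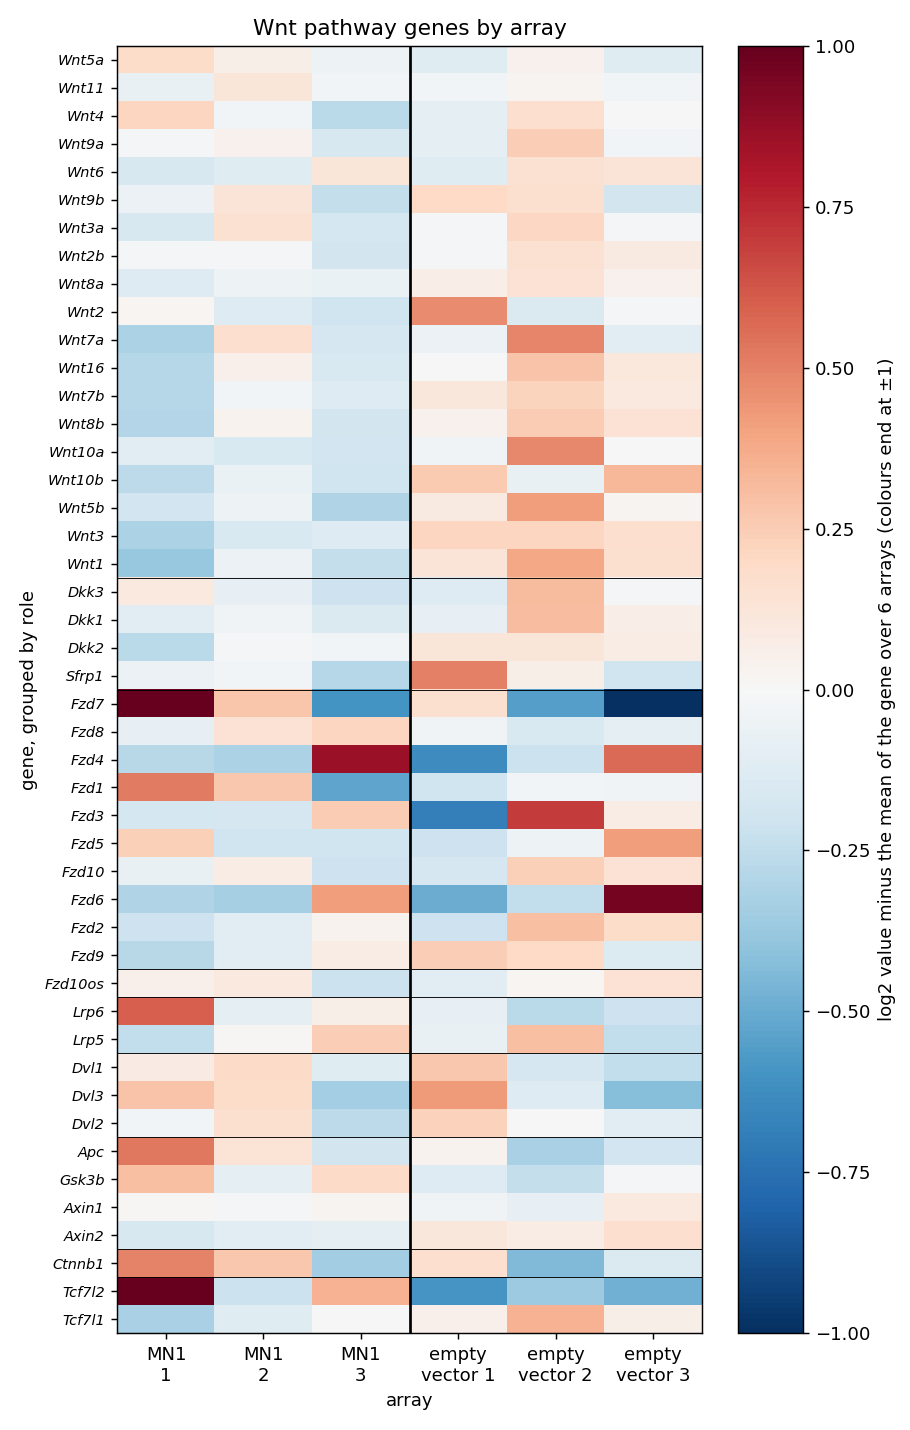
Value of each of the 46 genes (rows, grouped by role) on each array (columns, MN1 replicates at the left) minus the mean of that gene over the 6 arrays, in log2 units, with red above and blue below the mean. The Wnt rows are mostly blue on MN1 replicates 1 and 3 and red on empty vector replicate 2; Fzd4 and Fzd6 are red on replicate 3 of both groups, and Fzd7 and Tcf7l2 are deepest red on MN1 replicate 1.

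The co-receptor Lrp6 measured 9.10, 8.40 and 8.56 with MN1, against 8.42, 8.23 and 8.29 with the empty vector. MN1 replicate 2 lay just under empty vector replicate 1, and the difference was 0.37 ± 0.19 (SE, unadjusted p = 0.0934), or 0.17 without MN1 replicate 1. Lrp5, the other co-receptor, which is known for its control of bone mass, measured 8.21, 8.47 and 8.70 with MN1, against 8.38, 8.76 and 8.21 with the empty vector. The groups of Lrp5 covered the same range, with a difference of 0.01 ± 0.19 (SE) and a 95% interval from -0.45 to 0.46. The 3 Dishevelled genes, which relay the signal inward, had intervals that also spanned 0. Dvl1 measured 8.88, 8.99 and 8.68 with MN1, against 9.07, 8.63 and 8.55 with the empty vector (0.10 ± 0.17, SE). Dvl2 measured 8.30, 8.49 and 8.07 with MN1, against 8.56, 8.33 and 8.22 with the empty vector (-0.09 ± 0.15, SE). Dvl3 measured 9.02, 8.92 and 8.40 with MN1, against 9.16, 8.60 and 8.31 with the empty vector (0.09 ± 0.26, SE). In each Dishevelled gene, replicate 3 was the lowest array of its group.

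Beta-catenin and the scaffold and kinase genes of its destruction complex had differences above 0, apart from Axin2. Ctnnb1, which encodes beta-catenin, measured 12.06, 11.83 and 11.21 with MN1, against 11.73, 11.12 and 11.42 with the empty vector. Its groups overlapped, at 0.28 ± 0.26 (SE), and leaving out single arrays gave 0.10 (MN1 replicate 1) to 0.52 (MN1 replicate 3). Apc, the tumour suppressor scaffold, measured 8.67, 8.28 and 7.96 with MN1, against 8.18, 7.82 and 7.96 with the empty vector (0.32 ± 0.20, SE), and the difference was 0.14 with MN1 replicate 1 left out and 0.49 with MN1 replicate 3 left out. Gsk3b, the kinase that phosphorylates beta-catenin, measured 9.75, 9.36 and 9.65 with MN1, against 9.32, 9.22 and 9.44 with the empty vector (0.26 ± 0.13, SE). Only MN1 replicate 2 of Gsk3b lay within the empty vector range. Axin1, the constitutive scaffold, measured 8.66, 8.62 and 8.67 with MN1, against 8.61, 8.56 and 8.74 with the empty vector. It was the least variable gene of the set, with a range of 0.18 over all arrays and a difference of 0.01 ± 0.09 (SE), and that sign turned under quantile normalization (-0.08). These genes lay in bins 4 and 5, where 32.5% and 39.9% of all genes had differences below 0.

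Axin2 is a negative regulator that beta-catenin itself induces in many tissues. It measured 5.59, 5.64 and 5.65 on the MN1 arrays, against 5.86, 5.82 and 5.92 on the empty vector arrays. Both groups were tight (SD 0.04 and 0.05, n = 3 each) and did not overlap. The difference was -0.24 ± 0.09 (SE), or 0.849-fold, at an unadjusted p of 0.0313, and it lay between -0.27 and -0.20 under every alternative in which Axin2 was tested. The unadjusted p was no longer under 0.05 with median-centred or quantile-normalized arrays, with the replicate block, without both replicate 3 arrays, or with any 1 array left out other than empty vector replicate 2. Its mean value put it in bin 2, whose median difference was -0.12.

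The 2 measured TCF factors differed in opposite directions. Tcf7l2, a TCF factor best known as the beta-catenin partner of intestinal stem cells, measured 8.86, 7.34 and 7.90 on the MN1 arrays, against 6.97, 7.19 and 7.08 on the empty vector arrays. It was the only one of the 46 genes whose MN1 arrays all lay above the empty vector arrays, and it lay in bin 4, where 10.4% of all genes did so. The MN1 arrays were far more spread (SD 0.77, against 0.11 with the empty vector, n = 3 each), and MN1 replicate 2 was only slightly above empty vector replicate 2. The difference was 0.95 ± 0.36 (SE), or 1.94-fold, with a 95% interval from 0.08 to 1.83 (limma, unadjusted p = 0.0368, adjusted p = 0.584), and it was 0.54 without MN1 replicate 1. The mean of 13 monocyte and macrophage markers was 11.07, 10.41 and 10.57 on the MN1 arrays, against 10.27, 9.88 and 10.11 on the empty vector arrays. Within the MN1 group the arrays had the same order in Tcf7l2 and in those markers, within the empty vector group the opposite order, and the part of those cells in the Tcf7l2 values was not tested. Tcf7l1, a TCF factor that mainly represses its targets, measured 5.63, 5.82 and 5.94 with MN1, against 5.996, 6.30 and 6.01 with the empty vector. The groups did not overlap, by a narrow margin, and the difference was -0.30 ± 0.13 (SE, unadjusted p = 0.0619).

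**Figure D4:**
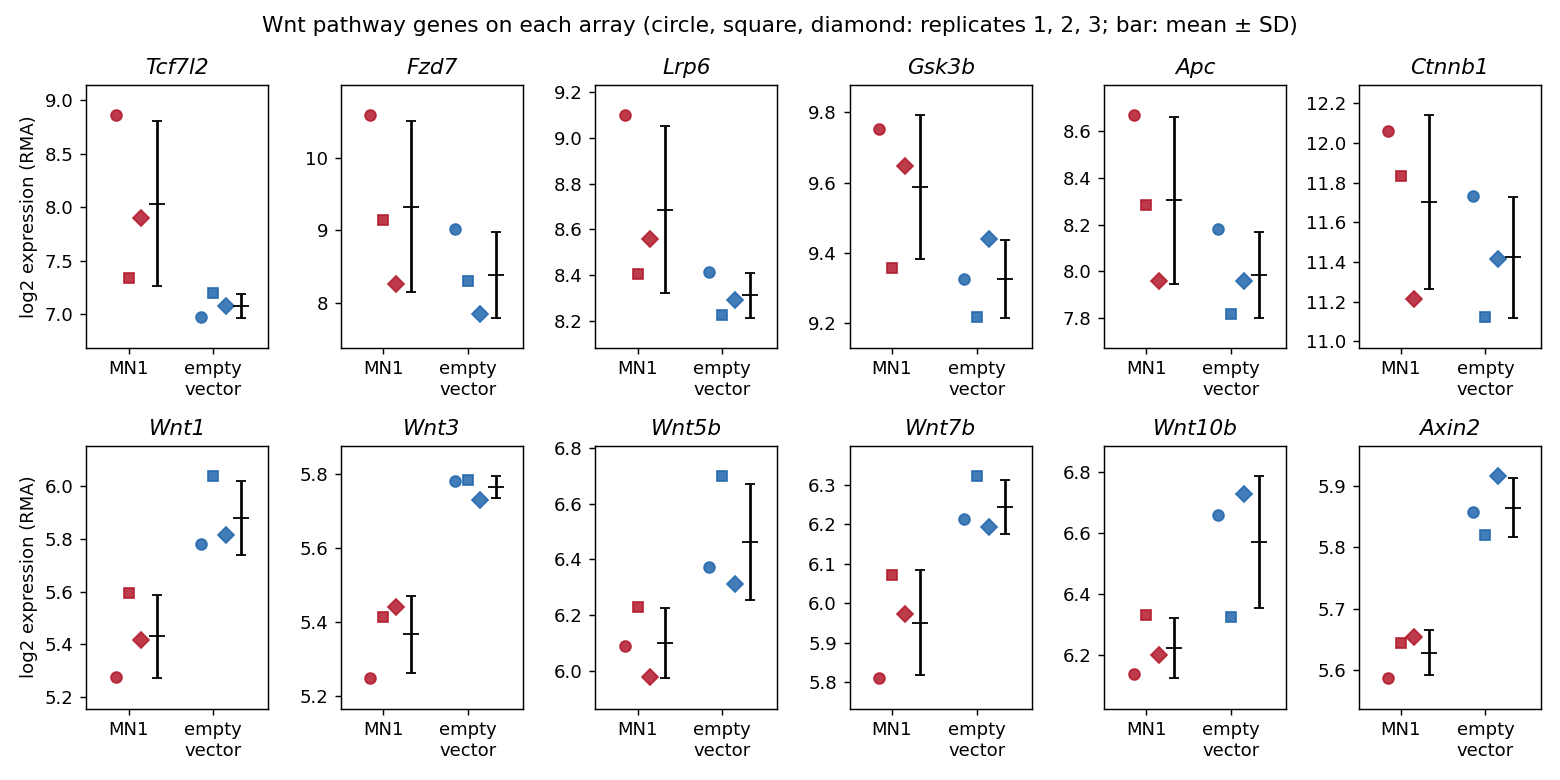
Log2 expression (y axis, a separate scale in each panel) of 12 Wnt pathway genes on the 3 MN1 and 3 empty vector arrays, with the mean and SD of each group as black bars. Tcf7l2 lies above the empty vector arrays on all MN1 arrays, led by replicate 1 at 8.86; Wnt1, Wnt3, Wnt5b, Wnt7b and Axin2 lie below them without overlap, and the remaining panels overlap.

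Promoters of 4 of the genes without overlap between the groups are shown, as the only gene with higher MN1 arrays and 3 of the lower ones. Each runs from 250 bases before to 50 bases after the start site, from RefSeq on GRCm38.p6, 5′ to 3′, with CG dinucleotides in capitals. They are chr19:55741560-55741859 for Tcf7l2, chr11:108920099-108920398 for Axin2, chr11:103773925-103774224 for Wnt3 and chr15:98789607-98789906 for Wnt1, all on the plus strand. Tcf7l2 has a further start in the table, not shown.
Tcf7l2: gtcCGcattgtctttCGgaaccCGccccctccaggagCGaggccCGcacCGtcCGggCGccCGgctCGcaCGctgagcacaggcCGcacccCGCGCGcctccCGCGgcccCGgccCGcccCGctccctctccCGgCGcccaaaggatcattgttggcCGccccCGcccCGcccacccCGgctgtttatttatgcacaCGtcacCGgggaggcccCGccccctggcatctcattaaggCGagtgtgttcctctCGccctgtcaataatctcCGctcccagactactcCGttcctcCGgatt
Axin2: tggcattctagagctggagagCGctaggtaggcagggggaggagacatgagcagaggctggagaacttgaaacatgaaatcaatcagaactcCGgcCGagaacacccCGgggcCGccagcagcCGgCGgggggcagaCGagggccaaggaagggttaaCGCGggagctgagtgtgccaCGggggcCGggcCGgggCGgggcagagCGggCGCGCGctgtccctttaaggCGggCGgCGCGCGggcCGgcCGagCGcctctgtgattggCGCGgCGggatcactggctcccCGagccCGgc
Wnt3: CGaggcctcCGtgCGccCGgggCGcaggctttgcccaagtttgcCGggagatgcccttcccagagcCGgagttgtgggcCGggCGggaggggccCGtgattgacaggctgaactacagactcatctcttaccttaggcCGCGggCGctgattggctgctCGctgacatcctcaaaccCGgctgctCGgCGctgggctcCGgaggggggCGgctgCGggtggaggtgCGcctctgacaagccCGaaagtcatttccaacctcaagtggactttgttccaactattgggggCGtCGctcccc
Wnt1: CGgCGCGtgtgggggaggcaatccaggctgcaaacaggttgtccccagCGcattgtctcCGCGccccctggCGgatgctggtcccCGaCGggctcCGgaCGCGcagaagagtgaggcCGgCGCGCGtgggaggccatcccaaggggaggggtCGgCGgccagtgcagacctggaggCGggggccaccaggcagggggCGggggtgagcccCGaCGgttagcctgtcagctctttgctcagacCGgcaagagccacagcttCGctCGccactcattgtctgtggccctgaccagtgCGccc
These windows hold 34, 31, 24 and 26 CG dinucleotides. The table held 36 promoters for 31 of the 46 genes, with a median of 30.5 and a range from 4 to 58, while the median over all 32851 promoters, predicted genes included, was 7.

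Of the forms of the TCF binding motif core, only CTTTGA was searched, on both strands (TCAAAG on the other). It was found in 5 of the 36 member promoters (13.9%), those of Wnt5b, Wnt11, Fzd1, Gsk3b and Dkk1, and in 16% of all promoters in the table, so its share was near that of the table. CTTTGA is in none of the 4 windows above, and other forms of the core were not searched there. Wnt5b was the only one of these 5 genes without overlap between the groups. The match lies in 1 of its 3 listed promoters, chr6:119449337-119449636 on the minus strand, shown with the motif in capitals.
Wnt5b: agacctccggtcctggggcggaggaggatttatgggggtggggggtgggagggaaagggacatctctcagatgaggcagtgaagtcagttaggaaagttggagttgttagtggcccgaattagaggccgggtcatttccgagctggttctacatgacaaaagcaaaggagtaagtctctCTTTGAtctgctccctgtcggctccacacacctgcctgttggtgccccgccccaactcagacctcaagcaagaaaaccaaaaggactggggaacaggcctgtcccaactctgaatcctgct

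The wider pathway was read from 4 further gene lists. Of 31 other extracellular modulators and co-receptors, 12 had differences above 0 and 19 (61.3%) below, where 56.7% of all genes lay below. Their median was -0.03, with 0 passing adjustment. At an unadjusted p under 0.05, 0 of them were higher and 2 lower, where 4.17% and 4.23% of all genes were. Those 2 were Notum, an enzyme that inactivates Wnt ligands, at -0.31 ± 0.09 (SE), and Kremen2, a Dickkopf receptor, at -0.37 ± 0.14 (SE). Notum measured 5.39, 5.55 and 5.37 with MN1, against 5.75, 5.77 and 5.73 with the empty vector. Like Axin2, Notum is a feedback inhibitor induced by Wnt signalling, its groups did not overlap, and it lay in bin 2. It was the only 1 of the 31 genes (3.23%) with non-overlapping lower groups, where 10.3% of all genes and 19.7% of bin 2 had them. All other genes of this list had overlapping groups. Next in the list were Dkk4 (-0.23 ± 0.11, SE) and the receptor tyrosine kinase Ror2 (-0.21 ± 0.12, SE), both with overlapping groups.

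Of 40 other intracellular and nuclear components, 23 had differences above 0 and 17 (42.5%) below, where 56.7% of all genes lay below. Of the 40, 13 lay in bin 4 and 15 in bin 5, where 32.5% and 39.9% of all genes had differences below 0. Their median was 0.06, with 0 passing adjustment. At an unadjusted p under 0.05, 3 were higher and 1 lower, where 4.17% and 4.23% of all genes were. The 3 higher genes were Ddit3, a stress-induced factor reported to inhibit TCF binding, at 0.68 ± 0.27 (SE), Cxxc5, a zinc finger protein that binds Dishevelled, at 0.52 ± 0.21 (SE), and Tnks, a tankyrase that marks Axin for degradation, at 0.28 ± 0.12 (SE). The groups did not overlap for Cxxc5 and Tnks. The lower gene was Pygo1, a nuclear partner of the beta-catenin complex, at -0.31 ± 0.12 (SE), also without overlap. Of the 40 genes, 4 had non-overlapping higher groups and 3 (7.5%) lower ones, where 5.71% and 10.3% of all genes did.

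Of 23 target genes of beta-catenin, 6 had differences above 0 and 17 (73.9%) below, where 56.7% of all genes lay below. Bins 1 to 5 held 1, 6, 5, 4 and 7 of them, and 75.8%, 79.4%, 56.0%, 32.5% and 39.9% of all genes in those bins lay below 0. The median of the 23 was -0.13, with 0 passing adjustment. At an unadjusted p under 0.05, 0 were higher and 3 lower, where 4.17% and 4.23% of all genes were. Tiam1, an activator of the GTPase Rac1, measured 9.18, 9.58 and 9.10 with MN1, against 10.38, 10.27 and 9.90 with the empty vector. Its difference was -0.90 ± 0.18 (SE), larger in size than that of Axin2, and the groups did not overlap. The AP-1 gene Fosl1 differed by -0.60 ± 0.17 (SE) and Sox9, a developmental transcription factor, by -0.31 ± 0.09 (SE), both without overlap. Of the 23 genes, 5 (21.7%) had non-overlapping lower groups, where 10.3% of all genes and 1.68% to 19.7% of each bin did. Non-overlapping higher groups were found for 0 of the 23, where 5.71% of all genes had them. Id2, an inhibitor of basic helix-loop-helix factors, differed in the other direction, by 0.64 ± 0.27 (SE), with overlapping groups. Many of these genes answer to other signals too.

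Of 36 genes of the polarity and calcium branch, 25 had differences above 0 and 11 (30.6%) below, where 56.7% of all genes lay below. Of the 36, 11 lay in bin 4 and 11 in bin 5, where 32.5% and 39.9% of all genes had differences below 0. Their median was 0.07, with 0 passing adjustment. At an unadjusted p under 0.05, 3 were higher and 1 lower, where 4.17% and 4.23% of all genes were. Nlk, a kinase that phosphorylates TCF factors, measured 9.69, 9.59 and 9.52 with MN1, against 9.47, 8.97 and 8.82 with the empty vector. Its groups were separate, at 0.52 ± 0.18 (SE). Plcb3, a phospholipase C, differed by 0.45 ± 0.14 (SE), the Jun kinase gene Mapk9 by 0.34 ± 0.14 (SE), and the calmodulin kinase gene Camk2a by -0.29 ± 0.10 (SE), each without overlap. Of the 36 genes, 3 had non-overlapping higher groups and 2 (5.56%) lower ones, where 5.71% and 10.3% of all genes did.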

How the data were processed

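RNA of 6 sorted mouse marrow samples, labelled with biotin from 200 ng, was hybridised to one-colour whole-transcript arrays, per the labels. The authors deposited log2 values from RMA (per the submitters' processing notes, which give no version), and the values, 2.29 to 14.80, have the range of a log2 scale. RMA draws dim values together, and no detection call was used. Of 35557 probe sets, 21789 carried 1 symbol; the probe set with the highest mean was kept per gene.

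Groups and replicate numbers came from titles. All 19938 genes were fitted with limma 3.58.1 (R 4.3.3; lmFit, eBayes, two-sided, no block), tested on simulated data; p-values were adjusted by Benjamini-Hochberg over all genes at 0.05. The members and gene lists were chosen with earlier results of these data known. Array values are given for the listed components and for ligands and receptors with an unadjusted p under 0.05, separate groups or a difference of at least 0.5, and differences for up to 4 genes of smallest p per further list. Of the marker lists, those for T and natural killer, B, monocyte, granulocyte and megakaryocyte cells are quoted above. The mean of the 8 erythroid markers was 6.79 to 7.46 with MN1 and 7.47 to 7.87 with the empty vector, of 12 stem and progenitor markers 8.92 to 9.55 and 8.17 to 8.66, and of 16 stromal and endothelial markers 6.19 to 6.40 and 6.16 to 6.34. Alternatives were the replicate block, median-centring, quantile normalization, removal of the dimmest 40% of genes, other uses of multiple probe sets, an intensity trend, array weights, a Y-linked covariate, and each array left out. Sequences are RefSeq's (GRCm38.p6).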

Additional observations from a re-analysis of the deposited data

How the results depend on the processing

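No Wnt pathway gene passed an adjusted p of 0.05 under any of the 15 listed alternatives or the 1 chosen after seeing the data, which left out both replicate 3 arrays; the lowest adjusted p of a member in any of them was 0.499892. At an unadjusted p under 0.05, the lower members numbered 7 as reported, where 4.23% of all genes were lower. They numbered 3 with the Y-linked covariate, with median-centring and with quantile normalization, where 1.80%, 2.01% and 3.62% of all genes were. Without both replicate 3 arrays there were 2, Fzd9 and Wnt3, where 3.12% of all genes were. With the dimmest 40% of genes removed there were 0, where 2.10% of the genes left were (17 of the 46 genes, Wnt1, Wnt3, Wnt8b and Axin2 among them, are then not tested). With single arrays left out there were 2 to 7, where 2.00% to 5.20% of all genes were. The genes counted differ between settings. The count of higher members, 1 as reported, was 0 with the Y-linked covariate or array weights and 0 to 4 with single arrays left out. Of all genes, 1675 had such a p in either direction as reported, and 746 and 1663 with the Y-linked covariate and array weights. With single arrays left out, 906 to 1953 did. With the replicate block the counts were 6 lower and 3 higher, with 0 passing adjustment. There, 4.21% of all genes were lower at that p, and 1980 genes had it in either direction. Same-numbered arrays deviated together with correlations of 0.13, 0.07 and 0.32 across genes. MN1 replicate 2 correlated best with empty vector replicate 1 (0.44), so the main fit did not take the numbers to pair the arrays. The mean of the Y-linked genes was highest on replicate 3 and lowest on replicate 2 in both groups. Whether the numbers pair the arrays was thus not settled. Ligands below 0 numbered 9 of the 10 left with the dimmest genes removed, and 15 to 18 of 19 with single arrays left out. Of all genes tested, 42.8% and 54.1% to 58.0% lay below 0 in those settings. In bin 2, 73.0%, 72.3% and 66.9% did with median-centring, quantile normalization and the Y-linked covariate. Of the 46 genes, 29 kept their sign throughout. Signs turned with the Y-linked covariate for Axin1 (-0.0567), Dkk3 (0.0173), Dvl2 (0.00240), Fzd3 (0.16), Fzd4 (-0.21), Wnt3a (0.0220), Wnt4 (0.0370), Wnt7a (0.0760), Wnt9a (0.0514) and Wnt9b (0.0515); with quantile normalization for Axin1 (-0.0780), Dvl3 (-0.00253) and Lrp5 (-0.0841); and without both replicate 3 arrays for Fzd10os (0.12), Fzd5 (0.15), Fzd6 (0.0548), Lrp5 (-0.23) and Wnt4 (0.0577). With single arrays left out, differences ran from -0.0256 to 0.0661 for Axin1, -0.22 to 0.00602 for Dkk3, -0.19 to 0.0233 for Dvl2, -0.10 to 0.32 for Dvl3, -0.0418 to 0.48 for Fzd1, -0.10 to 0.0539 for Fzd10os, -0.41 to 0.28 for Fzd3, -0.20 to 0.51 for Fzd4, -0.25 to 0.0719 for Fzd5, -0.43 to 0.30 for Fzd6, -0.11 to 0.16 for Lrp5, -0.0374 to 0.0597 for Wnt11, -0.18 to 0.0678 for Wnt4 and -0.15 to 0.0169 for Wnt9a. The cause was not tested for these. The mean of 3 Y-linked genes was 7.11, 6.12 and 7.57 on the MN1 arrays, against 5.78, 3.78 and 7.04 on the empty vector arrays, so part of that covariate runs with the groups. Low array values and 3 arrays per group limit what these data can show for the ligands.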
